A study of Mus musculus with 4 samples.

Results

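The genes described here are the 37 genes of the mouse mitochondrial genome, taken as every feature of the deposited count table whose symbol starts with mt-. They were 37 of 55291 features. Of these genes 13 make mRNA, 2 make ribosomal RNA (rRNA) and 22 make transfer RNA (tRNA), and all 37 had the same coordinates in the GENCODE M21 annotation of the mm10 genome. RNA was measured in mouse zygotes, which are fertilised eggs that have not yet divided, in 4 samples with 1 sample per group. The groups were zygotes injected with an agent labelled 3.3-MO and their MO control, and zygotes injected with 3.3S31A and their S31A control. The series concerns the histone variant H3.3, the labels do not spell out MO, and in the usual notation S31A names a form of a protein with an alanine in place of a serine. The labels give neither what the control zygotes received, nor the strain, the age, the time of collection or the number of zygotes. Each sample had 2 columns of counts, numbered 1 and 2 in the column names and called libraries here. The sources do not tell if these were different pools of zygotes or the same material prepared again.

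Mammalian mitochondria carry their own small circular genome. All of its mRNAs encode subunits of the respiratory chain or of ATP synthase, and its rRNAs and tRNAs serve the ribosomes that translate them. Both strands are transcribed into long RNAs, and the tRNAs lying between the larger genes mark where these are cut. Most genes are read from one strand, while mt-Nd6 and several tRNAs are read from the other. The egg holds a very large store of mitochondria and of their DNA, and the zygote inherits its mitochondria from the egg.

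Part of the mitochondrial genome also lies in the nuclear genome as a near-identical copy, which bears on how 13 of the 37 genes can be read. An alignment of the mitochondrial genes to all annotated nuclear transcripts found 7 pseudogenes in a row on chromosome 1, chr1:24611535-24616188 on the minus strand. They matched parts of the mitochondrial stretch chrM:6390-11042, from its first to its last base. The stretch spans 4653 bases there and 4654 on chromosome 1, a difference that lies in parts not aligned. Over 4140 aligned bases they differed from the mitochondrial genes at 2 positions. One was T3C in mt-Nd3 against its copy Gm28438, with positions counted from 1 at the first base of the mitochondrial gene. The other was A1066T in mt-Co1 against Gm29216, which lies at the fourth base of the alignment, beside sequence that was not aligned. The first 60 bases of mt-Co2 and of its copy Gm28661, at chrM:7013-7072 on the plus strand and chr1:24615506-24615565 on the minus strand, show that a read there carries no base that tells gene and copy apart. The first 60 bases of mt-Nd3 and Gm28438, at chrM:9459-9518 and chr1:24613060-24613119, hold the single difference between that pair, in capitals.
mt-Co2: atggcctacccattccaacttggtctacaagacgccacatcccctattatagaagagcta
Gm28661: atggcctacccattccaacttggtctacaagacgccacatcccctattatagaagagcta
mt-Nd3: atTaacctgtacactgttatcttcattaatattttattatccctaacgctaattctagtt
Gm28438: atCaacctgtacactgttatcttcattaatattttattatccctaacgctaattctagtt

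Of the 37 genes, 11 lay wholly inside this copied stretch, 2 lay partly inside and 24 lay outside. Those inside were mt-Ts1, mt-Td, mt-Co2, mt-Tk, mt-Atp8, mt-Atp6, mt-Co3, mt-Tg, mt-Nd3, mt-Tr and mt-Nd4l. Of these the tRNA genes mt-Ts1, mt-Td, mt-Tk, mt-Tg and mt-Tr and most of mt-Atp8 lie between the aligned parts. They are called inside by position alone, and their match to chromosome 1 was not examined. Of mt-Co1 483 bases were inside and 1062 outside, and of mt-Nd4 876 bases were inside and 502 outside. For the deposited counts, the handling of reads with several equal matches is not given in the sources used here.

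Libraries held 5661621 to 13233371 counts, with 11372 to 15156 genes detected. All 12 of 12 oocyte and zygote markers reached 10 CPM (counts scaled to the size and composition of the library) in every sample. Their summed level was 13195 and 6078 CPM in MO injected, against 7335 and 9681 CPM in MO control, and 14574 and 11649 CPM in S31A injected, against 10136 and 10238 CPM in S31A control. In MO injected and in S31A injected, library 1 had the higher level of these markers and the lower mitochondrial share given below. In MO control, library 2 had the higher level and the lower share, while in S31A control library 2 had the higher value of both. The part of this in the results was not tested. Of 10 cumulus and granulosa cell markers 1 reached 10 CPM, and 7 to 8 were at 0 counts, among them Amh, Fshr, Foxl2 and Has2. Their summed level was 91.2 and 53.3 CPM in MO injected, against 58.0 and 52.3 CPM in MO control, and 167.7 and 66.4 CPM in S31A injected, against 53.2 and 90.2 CPM in S31A control. None of 6 sperm markers reached 10 CPM, 4 to 5 were at 0, and their summed level was 1.30 to 6.74 CPM per library. With 1 sample per group, differences between groups have no replicate check and no test was made. Each is set beside the gap between the 2 libraries of a sample, and intervals are exact 95% Clopper-Pearson intervals that cover counting error only. In these bulk samples, fewer zygotes or mitochondria and less RNA in each cannot be told apart. Within MO control the libraries were unlike each other for several mitochondrial genes, as given below. In the MO comparison, ratios of measured genes whose sign changed without library 1 of MO control are given with and without it.

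The mitochondrial genes took 3.47% and 4.99% of all counts in the 2 MO injected libraries, against 5.55% and 5.23% in MO control. In S31A injected they took 7.13% and 9.59%, against 9.65% and 10.36% in S31A control. In both experiments the injected libraries lay below their controls without overlap, in the S31A experiment by a narrow margin. Over the summed libraries the share was 4.09% in MO injected against 5.43% in MO control, a log2 ratio of -0.41 (interval -0.412 to -0.403), or 1.33-fold lower. It was 8.23% in S31A injected against 10.01% in S31A control, a log2 ratio of -0.28 (interval -0.286 to -0.280), or 1.22-fold lower. The 2 libraries of MO injected themselves differed 1.44-fold and those of S31A injected 1.35-fold, so each of these differences was smaller than the gap between the libraries of the injected sample. Without library 1 of MO injected the log2 ratio was -0.12 and without library 2 it was -0.65. Without library 1 of S31A injected it was -0.062 and without library 2 it was -0.49.

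The largest difference in share of the 3 pairs compared was between the controls. S31A control had 9.65% and 10.36% of its counts on mitochondrial genes, against 5.55% and 5.23% in MO control, a log2 ratio of 0.88 (interval 0.880 to 0.888), or 1.85-fold higher. The libraries of each control differed by 1.07-fold for S31A control and 1.06-fold for MO control. The experiment and whatever else set these control samples apart cannot be told apart.

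**Figure D1:**
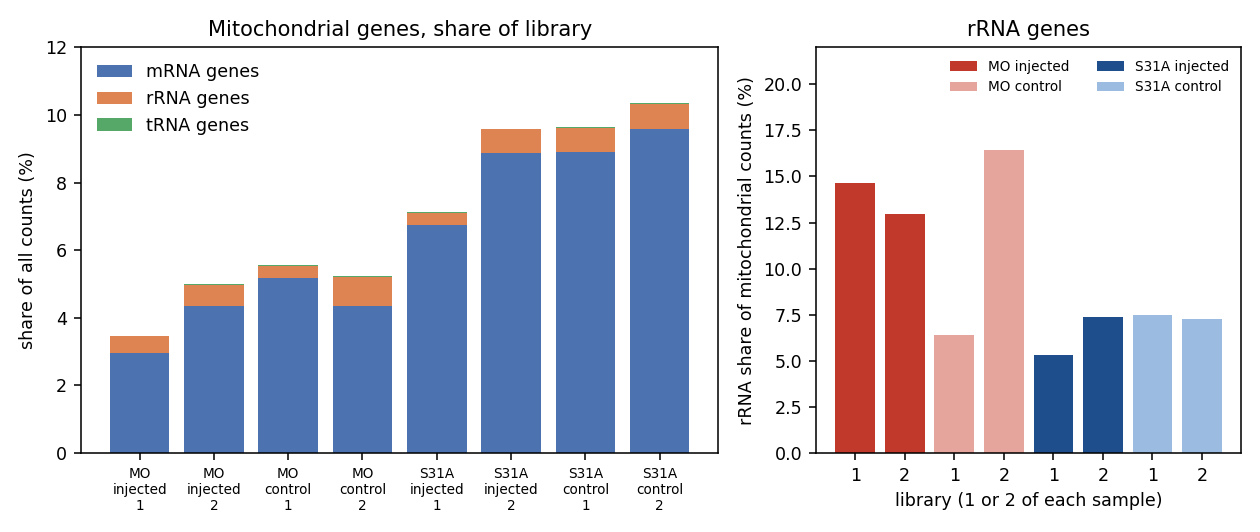
Left, the share of all counts on mitochondrial genes in each of the 8 libraries (y axis, percent), divided into mRNA, rRNA and tRNA genes; right, the rRNA genes' share of the mitochondrial counts (y axis, percent) in libraries 1 and 2 of each sample. Shares run from 3.47% in MO injected to 10.36% in S31A control, and within MO control the rRNA share is 6.39% in library 1 and 16.4% in library 2.

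Most of these counts were on mRNA genes. The mRNA genes took 85.1% and 86.9% of the mitochondrial counts in MO injected, against 93.5% and 83.4% in MO control. They took 94.5% and 92.5% in S31A injected, against 92.3% and 92.5% in S31A control. The rRNA genes mt-Rnr1 and mt-Rnr2, which give the RNAs of the small and the large ribosomal subunit, took 14.7% and 13.0% in MO injected, against 6.39% and 16.4% in MO control. Both MO injected libraries lay between the MO control libraries. In S31A injected the rRNA genes took 5.31% and 7.38%, against 7.48% and 7.27% in S31A control, again with overlap. The 22 tRNA genes together took 0.114% to 0.224% of the mitochondrial counts over the 8 libraries. A read on a tRNA gene can also come from a longer RNA that has not been cut there, and counts do not separate these.

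Levels of different genes were compared as counts per kilobase of gene, as a share of the sum of this value over the 37 genes. mt-Cytb (chrM:14145-15288), which encodes cytochrome b of complex III, ranked first in all 8 libraries with 24.2% to 33.3% of the sum. mt-Nd1 (chrM:2751-3707), a subunit of complex I, ranked second in all 8 with 12.2% to 20.2%. The complex I genes mt-Nd2 and mt-Nd4 and the cytochrome oxidase gene mt-Co1 took ranks 3 to 5 in every library, in changing order. mt-Nd2 had 10.1% to 17.2%, mt-Nd4 9.15% to 11.7% and mt-Co1 7.88% to 12.04%, and these ranges overlap. Ranks 6 to 9 were held by mt-Rnr2, mt-Nd5, mt-Nd6 and mt-Rnr1 in every library. mt-Rnr2 had 3.02% to 9.31%, mt-Nd5 3.36% to 5.30%, mt-Nd6 2.28% to 4.57% and mt-Rnr1 1.17% to 4.84%. Ranks by counts alone, with no division by length, kept mt-Cytb first in every library.

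The 6 mRNA genes wholly inside the copied stretch stood far below the 5 wholly outside it. mt-Co2 and mt-Co3 encode subunits of cytochrome oxidase, mt-Atp8 and mt-Atp6 of ATP synthase, and mt-Nd3 and mt-Nd4l of complex I. Summed over the 8 libraries mt-Atp8 had 32 counts, mt-Co2 226, mt-Atp6 331, mt-Co3 684, mt-Nd4l 1312 and mt-Nd3 12330, while mt-Cytb had 1644326. In each library the lowest of the 5 outside was 2.88 to 14.2 times the highest of the 6 inside per kilobase. Summed over genes, the level per kilobase was 86.9 to 367.4 times higher outside than inside. An end of the stretch cuts mt-Nd4 and mt-Co1. Over its whole length mt-Nd4 had 29.6% to 42.7% of the level of mt-Cytb per kilobase, and with its counts divided by the bases outside the stretch alone it would have 81.3% to 117.1%. For mt-Co1 the same values were 27.6% to 49.7% and 40.2% to 72.2%. The level of a gene inside the stretch therefore cannot be set against one outside it, and the part of the nuclear copy in this difference was not tested.

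**Figure D2:**
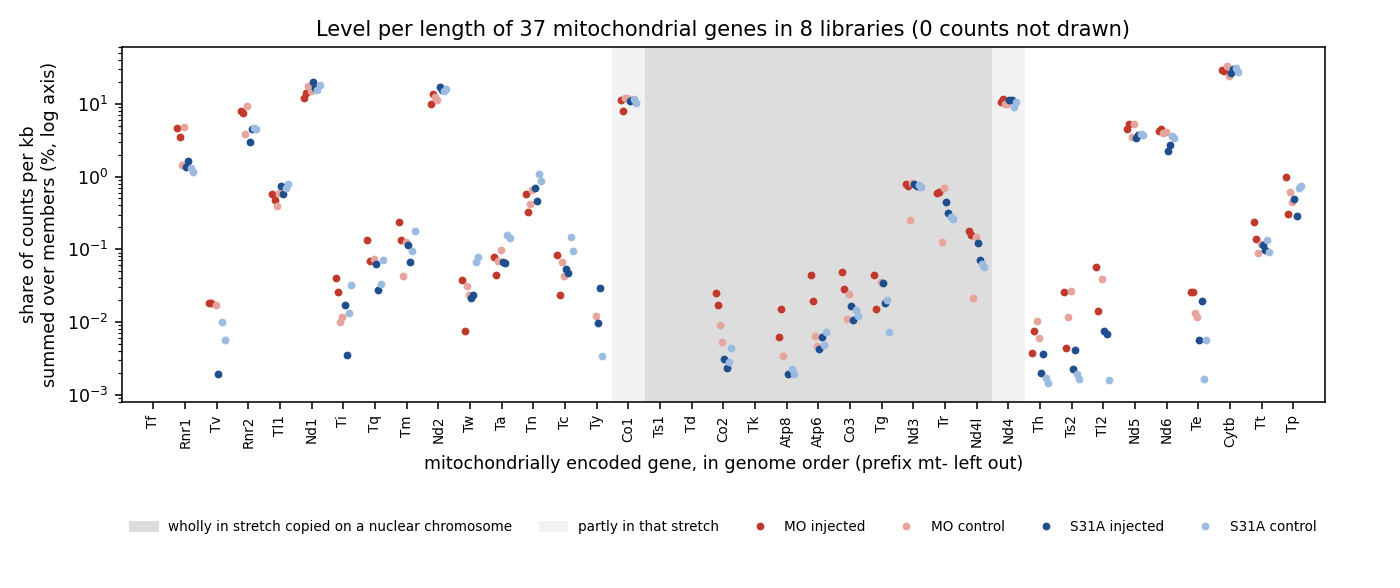
Counts per kilobase of each of the 37 mitochondrial genes as a share of their sum (y axis, percent, log scale), in genome order along the x axis, with 1 point per library coloured by group. Dark shading marks the 11 genes wholly inside the stretch copied on chromosome 1 and light shading the 2 partly inside. mt-Cytb and mt-Nd1 stand highest, and among the mRNA genes mt-Co2, mt-Atp8, mt-Atp6 and mt-Co3 stand lowest.

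Of the tRNA genes 4 had 0 counts in all 8 libraries, which were mt-Tf for phenylalanine, outside the stretch, and mt-Ts1 for serine, mt-Td for aspartate and mt-Tk for lysine, inside it. A count of 0 allows up to 0.230 to 0.493 CPM per library, with a floor of 3 counts. The tRNA genes that reached 10 CPM in any sample were mt-Tl1 for leucine (chrM:2676-2750), mt-Tn for asparagine (chrM:5089-5159), mt-Tr for arginine (chrM:9808-9875) and mt-Tp for proline (chrM:15356-15422). Their RNA sequences, written as DNA with the anticodon in capitals, are shown because the libraries of all 4 did not overlap in the S31A experiment. mt-Tn and mt-Tp are on the minus strand and mt-Tl1 and mt-Tr on the plus strand. They were read from GENCODE M21.
mt-Tl1: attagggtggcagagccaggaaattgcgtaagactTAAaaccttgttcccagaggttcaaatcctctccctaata
mt-Tn: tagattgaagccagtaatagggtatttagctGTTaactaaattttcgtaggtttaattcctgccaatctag
mt-Tr: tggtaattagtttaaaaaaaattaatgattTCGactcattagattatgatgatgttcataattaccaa
mt-Tp: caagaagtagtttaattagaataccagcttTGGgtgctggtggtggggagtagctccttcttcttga

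The comparisons of single genes use CPM scaled by edgeR's TMM factors and call a gene measured where either sample of a pair had at least 10 CPM. That took in 16 of the 37 genes with MO, 15 with S31A and 15 between the controls. Log2 ratios are from the summed libraries with a prior count of 2, and 2-fold apart means a log2 ratio of at least 1 in size. The rest had too few counts, and 4 of them none.

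With MO, the median log2 ratio of the 16 measured genes was -0.08, beside 0.03 over all 8110 measured features. One gene, mt-Nd4l, was at least 2-fold higher and 0 were lower, where 11.3% of all measured features were at least 2-fold higher and 12.5% lower. Of the 16, 1 lay higher and 3 lower in MO injected with no overlap of libraries, beside 19.2% and 21.3% of all measured features. These shares do not set the mitochondrial genes apart from the other features, and mt-Nd4l was measured only through its level in MO injected. Without library 1 of MO injected the median turned to 0.091, and without library 2 it was -0.37.

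The 3 genes that lay lower without overlap were mt-Nd1, mt-Co1 and mt-Tn. mt-Nd1 had 3523 and 5824 CPM in MO injected, against 7914 and 5909 CPM in MO control, a log2 ratio of -0.62 (interval -0.63 to -0.61). The ratio was -0.32 without library 1 of MO injected, -1.05 without library 2, and -0.36 without library 1 of MO control. The higher injected library and the lower control library were close to each other. mt-Co1 had 5361 and 5229 CPM in MO injected, against 8764 and 7689 CPM in MO control, a log2 ratio of -0.60 (interval -0.61 to -0.59). Here the libraries of each sample were close and the samples were well apart. mt-Tn had 12.3 and 10.04 CPM in MO injected, against 14.0 and 18.9 CPM in MO control, a log2 ratio of -0.43 (interval -0.69 to -0.17). Without library 2 of MO control it was -0.25. It was -0.69 without library 1 of MO injected and -0.68 without library 1 of MO control. mt-Cytb had 10082 and 14009 CPM in MO injected, against 18149 and 11463 CPM in MO control, a log2 ratio of -0.35, and its libraries overlapped. The ratio of mt-Cytb turned to 0.069 without library 1 of MO control.

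The other complex I genes with ends outside the copied stretch overlapped as well. mt-Nd2 had 3172 and 6140 CPM in MO injected, against 6156 and 4886 CPM in MO control, with a log2 ratio of -0.31. mt-Nd4 had 4483 and 6913 CPM in MO injected, against 6473 and 5603 CPM in MO control, with a log2 ratio of -0.11. The ratio of mt-Nd4 was 0.0091 without library 1 of MO control. For mt-Nd2 and mt-Nd4 the MO injected libraries were at least as far apart as those of MO control. mt-Nd5 had 2523 and 4156 CPM in MO injected, against 3083 and 3983 CPM in MO control, with a log2 ratio of -0.05. mt-Nd6 had 658 and 1018 CPM in MO injected, against 986 and 881 CPM in MO control, with a log2 ratio of -0.17. All 5 mRNA genes wholly outside the stretch, which are these but for mt-Nd4 with mt-Nd1 and mt-Cytb, had ratios below 0. None of the 4 genes just given was beyond the spread of its libraries.

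The rRNA genes and 3 genes inside the stretch differed more between the MO control libraries than between the samples. mt-Rnr1 had 1331 and 1439 CPM in MO injected, against 659 and 1911 CPM in MO control, with a log2 ratio of 0.30. mt-Rnr2 had 3827 and 5041 CPM in MO injected, against 2868 and 6087 CPM in MO control, with a log2 ratio of 0.11. Without library 1 of MO control the ratios were -0.43 and -0.45, and without library 2 they were 1.11 and 0.64. mt-Nd3 had 83.7 and 109.6 CPM in MO injected, against 41.5 and 119.2 CPM in MO control, with a log2 ratio of 0.43. mt-Tr had 12.3 and 18.1 CPM in MO injected, against 4.13 and 19.4 CPM in MO control, with a log2 ratio of 0.57. The ratios of mt-Nd3 and mt-Tr were -0.30 and -0.36 without library 1 of MO control. The gene counted above as 2-fold higher, mt-Nd4l, had 16.0 and 20.3 CPM in MO injected, against 3.04 and 18.2 CPM in MO control. Its log2 ratio was 1.01 (interval 0.74 to 1.31) over both libraries, 0.99 with DESeq2 size factors, 0.90 with scaling by totals, and 0.0021 and 2.55 without library 1 and library 2 of MO control. Library 1 of MO control held the lowest of the 4 values for all 5 of these genes. mt-Tl1 had 12.9 and 15.2 CPM in MO injected, against 14.2 and 18.6 CPM in MO control, with a log2 ratio of -0.15. mt-Tp had 20.0 and 8.84 CPM in MO injected, against 19.5 and 12.3 CPM in MO control, with a log2 ratio of -0.06. The ratio of mt-Tp was 0.36 without library 1 of MO control.

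**Figure D3:**
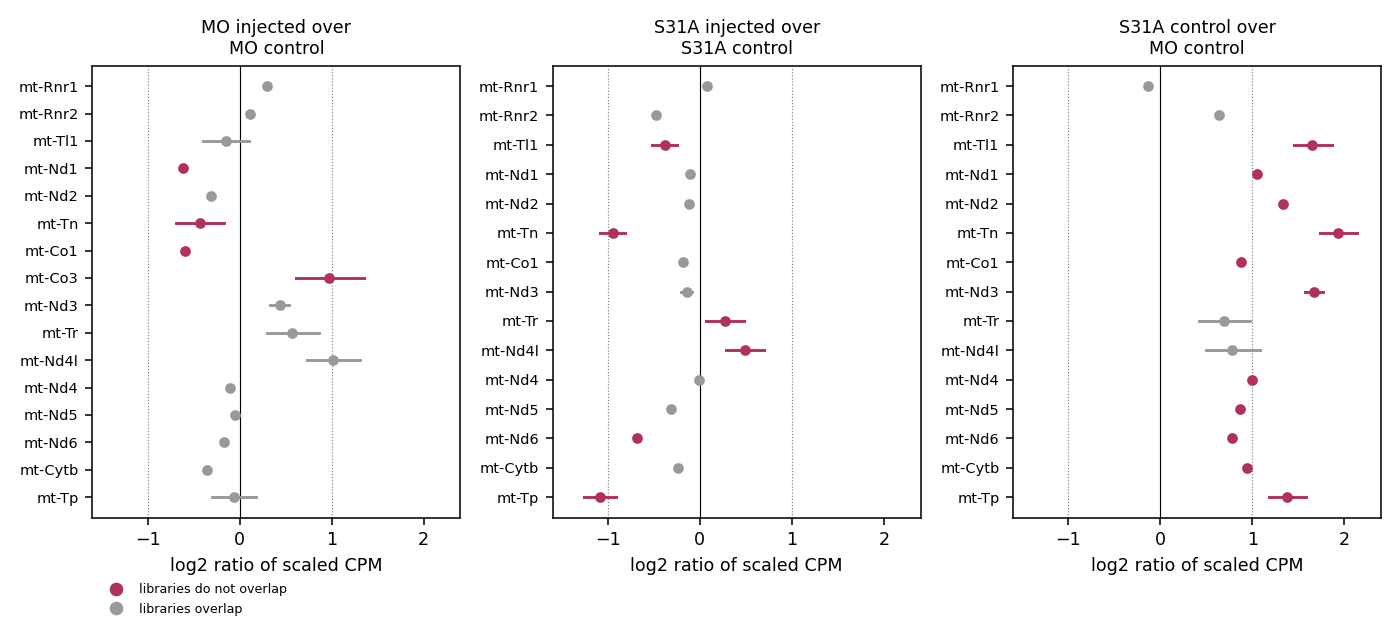
Log2 ratios of scaled CPM of the measured mitochondrial genes (x axis) for MO injected over MO control, S31A injected over S31A control and S31A control over MO control, with genes in genome order down the y axis and bars for the 95% counting interval. Red points mark genes whose libraries do not overlap and dotted lines mark 2-fold. With either injection most points lie within 2-fold of 0, and between the controls 14 of 15 lie above 0.

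Of the 6 mRNA genes inside the copied stretch 4 stood higher in MO injected without overlap, 1 of them measured, where 19.2% of all measured features did. That share is over features at 10 CPM or more, and none was taken over features as low as most of these genes. The sum of the nuclear copies also stood higher without overlap. mt-Co3 had 11.3 and 9.496 CPM in MO injected, against 4.13 and 7.73 CPM in MO control, a log2 ratio of 0.97 (interval 0.62 to 1.36). It was measured only through its level in MO injected, and without library 1 of MO control the ratio was 0.49. The other 3 were below 10 CPM in both samples. mt-Atp6 had 8.96 and 5.68 CPM in MO injected, against 2.07 and 1.32 CPM in MO control, a log2 ratio of 2.09 (interval 1.57 to 2.80). mt-Co2 had 5.13 and 5.02 CPM in MO injected, against 2.93 and 1.48 CPM in MO control, a log2 ratio of 1.13 (interval 0.61 to 1.75). mt-Atp8 rested on 17 counts in MO injected and 3 in MO control, with a log2 ratio of 1.56 (interval 0.23 to 4.43).

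The 7 copies on chromosome 1 summed to 40.0 and 33.2 CPM in MO injected, against 9.24 and 11.5 CPM in MO control, a log2 ratio of 1.93 (interval 1.68 to 2.18), or 3.804-fold higher. Between any library of one sample and any of the other the fold was 2.88 to 4.33. Gm10925, the copy of mt-Atp6 with 100% identity, had 14.2 and 14.1 CPM in MO injected, against 3.69 and 4.603 CPM in MO control. Gm28661, the copy of mt-Co2 with 100% identity, had 4.98 and 4.69 CPM in MO injected, against 1.09 and 1.64 CPM in MO control. Gm13341, a copy of mt-Co2 on chromosome 2 with 95.9% identity that is outside this set and was chosen after its values were seen, had 7.28 and 6.66 CPM in MO injected, against 2.61 and 1.48 CPM in MO control. Of the 7 copies 5 were higher without overlap, where 19.2% of all measured features were. That share is over features at 10 CPM or more, so it is not a like background for these copies. Genes and copies can share reads where they are identical, so their counts are not separate results. Only Gm10925 among the 7 reached 10 CPM in either sample, and it did so in MO injected alone. Gm28438, the copy of mt-Nd3, overlapped with 4.52 and 0.655 CPM in MO injected, against 0.869 and 1.15 CPM in MO control. Gm29216, the copy of part of mt-Co1, overlapped with 8 counts in MO injected and 7 in MO control and a log2 ratio of -0.23. Whether a read came from the mitochondrial gene or from its copy cannot be told apart where the sequences are identical.

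In the S31A experiment the sum of the 7 copies lay on the other side. They summed to 15.0 and 11.9 CPM in S31A injected, against 17.8 and 25.1 CPM in S31A control, a log2 ratio of -0.66 (interval -0.87 to -0.44), or 1.58-fold lower without overlap. Gm28661 and Gm10925 were lower without overlap, with log2 ratios of -1.35 and -0.90, where 19.8% of all measured features were lower without overlap. That share too is over features at 10 CPM or more. The other 5 copies overlapped, and none of the 7 reached 10 CPM in either sample of this pair. Of those 5, Gm28438 and Gm28439 had ratios of 0.0036 and 0.023 and Gm29216 of -0.13. mt-Co2 had 1.36 and 1.39 CPM in S31A injected, against 1.59 and 2.73 CPM in S31A control, with a log2 ratio of -0.62 (interval -1.37 to 0.04). mt-Co3 had 8.53 and 7.17 CPM in S31A injected, against 9.25 and 8.62 CPM in S31A control, with a log2 ratio of -0.16. mt-Atp6 had 1.88 and 3.64 CPM in S31A injected, against 2.71 and 4.40 CPM in S31A control, with overlap and a log2 ratio of -0.41. The intervals of these 3 genes cover 0.

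**Figure D4:**
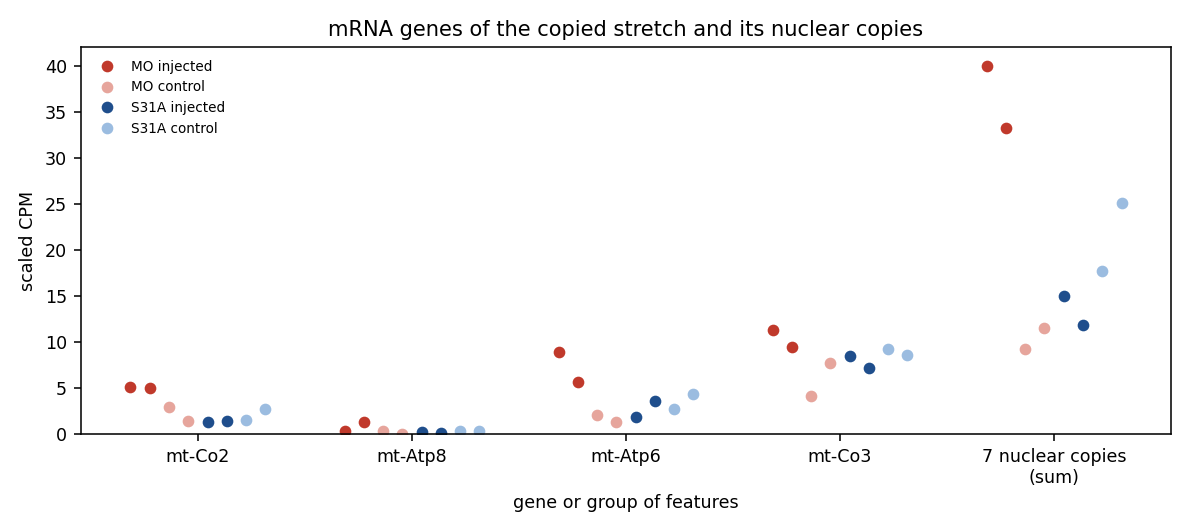
Scaled CPM (y axis) of 4 mRNA genes of the copied stretch and the sum of the 7 nuclear copies (x axis), with 1 point per library coloured by group. The 4 genes are those higher in MO injected without overlap, and mt-Nd3 and mt-Nd4l, which overlapped, are left out. The copies stand at 40.0 and 33.2 CPM in MO injected and at 9.24 to 25.1 CPM in the other 6 libraries, and mt-Atp6 and mt-Co2 are highest in MO injected.

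With S31A, the median log2 ratio of the 15 measured genes was -0.19, beside 0.02 over all 8191 measured features. None was at least 2-fold higher and 1, mt-Tp, was lower, where 14.1% of all measured features were at least 2-fold higher and 16.2% lower. Of the 15, 2 lay higher and 4 lower without overlap, beside 19.8% of all measured features in each direction. The share of members lower without overlap was close to that of all features. Without library 1 of S31A injected the median was -0.025.

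The 4 genes lower without overlap were mt-Nd6, mt-Tn, mt-Tp and mt-Tl1, and the first 3 of these are on the minus strand. mt-Nd6 (chrM:13552-14070), the only mRNA gene of the minus strand, had 769 and 1231 CPM in S31A injected, against 1537 and 1591 CPM in S31A control, a log2 ratio of -0.68 (interval -0.70 to -0.65). It was -0.39 without library 1 of S31A injected and -1.05 without library 2. mt-Tn had 32.1 and 28.2 CPM in S31A injected, against 62.4 and 55.6 CPM in S31A control, a log2 ratio of -0.95 (interval -1.09 to -0.81). mt-Tp had 21.7 and 16.9 CPM in S31A injected, against 38.6 and 44.6 CPM in S31A control, a log2 ratio of -1.08 (interval -1.26 to -0.92), or 2.12-fold lower. For mt-Tn and mt-Tp the samples were further apart than the libraries of either sample. mt-Tl1, on the plus strand, had 36.1 and 38.1 CPM in S31A injected, against 42.5 and 54.0 CPM in S31A control, a log2 ratio of -0.38 (interval -0.52 to -0.25), and of -0.15 without library 2 of S31A control.

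The genes higher without overlap were neighbours inside the copied stretch. mt-Tr had 19.6 and 18.5 CPM in S31A injected, against 15.7 and 16.1 CPM in S31A control, a log2 ratio of 0.27 (interval 0.06 to 0.48). mt-Nd4l had 23.4 and 18.3 CPM in S31A injected, against 15.1 and 15.0 CPM in S31A control, a log2 ratio of 0.49 (interval 0.28 to 0.70). Without library 1 of S31A injected these ratios were 0.17 and 0.23. The copy of mt-Nd4l, Gm10222, overlapped, with 1.19 and 1.39 CPM in S31A injected, against 1.31 and 3.43 CPM in S31A control.

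The remaining 9 measured genes overlapped between S31A injected and S31A control, with log2 ratios from -0.48 for mt-Rnr2 to 0.08 for mt-Rnr1. mt-Cytb had 19679 and 30219 CPM in S31A injected, against 28849 and 28641 CPM in S31A control, with a log2 ratio of -0.23. mt-Nd1 had 12540 and 13729 CPM in S31A injected, against 12337 and 15853 CPM in S31A control, with a log2 ratio of -0.11. mt-Co1 had 11091 and 15202 CPM in S31A injected, against 15035 and 14463 CPM in S31A control, with a log2 ratio of -0.19. For mt-Cytb and mt-Co1, library 1 of S31A injected was low and library 2 was above both S31A control libraries. mt-Nd2 had 11581 and 13950 CPM in S31A injected, against 12622 and 14816 CPM in S31A control, with a log2 ratio of -0.12. mt-Nd4 had 10114 and 13619 CPM in S31A injected, against 10344 and 13092 CPM in S31A control, with a log2 ratio of -0.01. mt-Nd5 had 3985 and 5875 CPM in S31A injected, against 5854 and 6181 CPM in S31A control, with a log2 ratio of -0.32. mt-Nd3 had 178.8 and 227.9 CPM in S31A injected, against 218.8 and 224.9 CPM in S31A control, with a log2 ratio of -0.14. mt-Rnr2 had 3103 and 6141 CPM in S31A injected, against 6018 and 6444 CPM in S31A control, and mt-Rnr1 had 832 and 1365 CPM in S31A injected, against 1018 and 1009 CPM in S31A control.

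The 9 genes annotated on the minus strand were then summed as a share of the mitochondrial counts, which does not depend on how libraries are scaled. This grouping was chosen after their values were seen. The share was 1.12% and 1.27% in S31A injected, against 1.76% and 1.67% in S31A control, a log2 ratio of -0.51 (interval -0.54 to -0.49). The libraries were well apart, and the ratio was -0.61 to -0.44 with any 1 library left out. In the MO experiment the share was 1.98% and 2.08% in MO injected, against 1.86% and 1.89% in MO control, a log2 ratio of 0.12 (interval 0.09 to 0.15), on the other side of 0 and smaller. mt-Nd6 held most of these counts. The 8 minus-strand tRNA genes alone took 0.0845% and 0.0553% of the mitochondrial counts in S31A injected, against 0.128% and 0.117% in S31A control, a log2 ratio of -0.81 (interval -0.91 to -0.72). For the 14 plus-strand tRNA genes it was -0.11 (interval -0.21 to -0.01), with overlap. In the MO experiment the minus-strand tRNA genes overlapped, at 0.111% and 0.0474% in MO injected, against 0.0693% and 0.0781% in MO control. Both S31A injected libraries lay within the range of these MO libraries. Between the controls the share on minus-strand tRNA genes was higher in S31A control without overlap, a log2 ratio of 0.75 (interval 0.62 to 0.88). For all 9 minus-strand genes together it was lower in S31A control, a log2 ratio of -0.13.

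Among the tRNA genes under 10 CPM, mt-Ta for alanine and mt-Tc for cysteine, beside mt-Tn on the minus strand, were also lower in S31A injected without overlap. mt-Ta had 2.98 and 3.85 CPM in S31A injected, against 8.78 and 8.88 CPM in S31A control, a log2 ratio of -1.36 (interval -1.80 to -0.99). mt-Tc had 2.30 and 2.68 CPM in S31A injected, against 8.04 and 5.63 CPM in S31A control, a log2 ratio of -1.42 (interval -1.94 to -0.99). mt-Tw for tryptophan, next to them on the plus strand, had 0.938 and 1.39 CPM in S31A injected, against 3.64 and 4.75 CPM in S31A control, a log2 ratio of -1.80 (interval -2.59 to -1.22). S31A control also stood above MO control for mt-Ta, mt-Tc and mt-Tw without overlap, with log2 ratios of 1.84, 1.98 and 2.22. For mt-Ta both S31A injected libraries lay above those of MO control, at 2.28 and 2.79 CPM. The gene mt-Ty for tyrosine in the same cluster, on the minus strand, was higher without overlap on few counts, 21 in S31A injected and 2 in S31A control, a log2 ratio of 2.57 (interval 1.43 to 6.60). Of the other minus-strand tRNA genes with counts, mt-Tq for glutamine and mt-Te for glutamate overlapped, with log2 ratios of -0.44 and 1.25. On the plus strand mt-Tm for methionine and mt-Tv for valine were lower without overlap too, with log2 ratios of -0.82 and, on 1 count in S31A injected and 10 in S31A control, -1.96 (interval -8.69 to -0.44). Per the labels' protocols the libraries were made with a DNA kit from PCR-amplified cDNA. The strand setting of the counting is not given in the sources used here. Reads of the opposite strand at the minus-strand genes cannot be told apart from reads of the genes. The minus-strand values are therefore grouped by annotation and are not a measure of 1 strand.

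**Figure D5:**
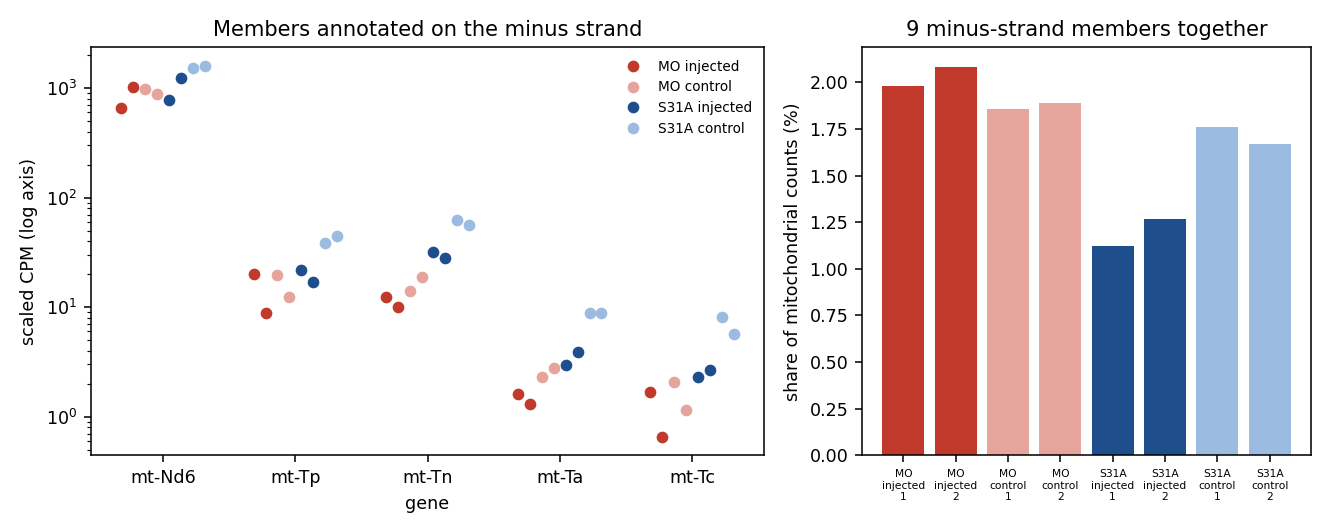
Left, scaled CPM (y axis, log scale) of the 5 minus-strand genes lower in S31A injected without overlap (x axis), with 1 point per library. The other minus-strand genes are left out, among them mt-Ty, which was higher in S31A injected without overlap. Right, the share of the mitochondrial counts on all 9 minus-strand genes in each library (y axis, percent, from 0). The S31A injected libraries hold 1.12% and 1.27%, below the other 6 libraries, which hold 1.67% to 2.08%.

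Between the controls most measured mitochondrial genes were higher in S31A control. The median log2 ratio of S31A control over MO control was 0.95 over the 15 measured genes, beside 0.05 over all 8266 measured features. At least 2-fold higher in S31A control were 6 of 15 genes and 0 were lower, where 13.6% of all measured features were higher and 16.2% lower. Higher without overlap were 11 of 15 and 0 were lower, beside 21.2% and 25.2% of all features. mt-Cytb had 28849 and 28641 CPM in S31A control, against 18149 and 11463 CPM in MO control, a log2 ratio of 0.95 (interval 0.94 to 0.95). mt-Nd2 had 12622 and 14816 CPM in S31A control, against 6156 and 4886 CPM in MO control, a log2 ratio of 1.34 (interval 1.33 to 1.35), or 2.53-fold higher. mt-Tn had 62.4 and 55.6 CPM in S31A control, against 14.0 and 18.9 CPM in MO control, a log2 ratio of 1.93 (interval 1.74 to 2.14). The other genes at least 2-fold higher were mt-Nd3 with a log2 ratio of 1.67, mt-Tl1 with 1.65, mt-Tp with 1.37 and mt-Nd1 with 1.05. mt-Nd3 had 0.94 without library 1 of MO control. mt-Nd1 had 0.80 without library 2 of S31A control, 0.89 without library 2 of MO control and 0.97 with scaling by totals. mt-Rnr1, with 1018 and 1009 CPM in S31A control, against 659 and 1911 CPM in MO control, had a ratio of -0.14, and mt-Rnr2, mt-Tr and mt-Nd4l overlapped too. The 7 copies on chromosome 1 stood at 17.8 and 25.1 CPM in S31A control, against 9.24 and 11.5 CPM in MO control, a log2 ratio of 1.14 (interval 0.88 to 1.41). S31A control is also the sample against which S31A injected was set, and MO control that of MO injected, so these comparisons share samples.

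The nuclear genes that copy, transcribe, process and translate the mitochondrial genome were read from lists of their names. Of 22 genes of mitochondrial DNA maintenance and transcription 12 were measured with MO, of which 1 passed 2-fold upward and 0 downward, beside 11.3% and 12.5% of all measured features. It was Polg, the DNA polymerase of mitochondria, with 10.2 and 14.3 CPM in MO injected, against 5.11 and 3.78 CPM in MO control, a log2 ratio of 1.41 (interval 1.04 to 1.83). Polg with MO, and below Pnpt1 with S31A and Mrps12 with MO, were measured only through the injected sample. Most of the lower genes named below were measured only through the control sample. With MO these were Mterf1b, Lrpprc, Mtif3, Mrps35, Mrps31 and Mrps27. With S31A they were Mterf1b, Fastkd2, Ptcd2, Oxa1l, Mrps12, Mrpl2, Mrpl17 and Aurkaip1. The counts past 2-fold given for each list hold such genes. With S31A 2 of 12 genes of this first list were at least 2-fold higher and 1 lower, beside 14.1% and 16.2% of all measured features. The 2 higher genes, with log2 ratios up to 6.26, had libraries that overlapped and so are not named. The lower was Mterf1b, 1 of a pair of near-identical mouse genes for a transcription termination factor, which makes its counts uncertain. It had 11.3 and 2.57 CPM in S31A injected, against 35.6 and 29.0 CPM in S31A control, a log2 ratio of -2.10 (interval -2.38 to -1.86). Mterf1b also lay lower with MO, with 8.43 and 7.31 CPM in MO injected, against 10.3 and 17.3 CPM in MO control. Rnaseh1, which removes RNA from RNA-DNA hybrids, had 89.3 and 55.8 CPM in S31A injected, against 121.9 and 124.1 CPM in S31A control, a log2 ratio of -0.72 (interval -0.81 to -0.63).

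Of 30 genes of mitochondrial RNA processing and stability 19 were measured with MO, with 0 past 2-fold upward and 1 downward, and 20 with S31A, with 3 upward and 3 downward. The shares over all measured features were 11.3% upward and 12.5% downward with MO, and 14.1% and 16.2% with S31A, so these counts are near or below the background. Lrpprc, which keeps mitochondrial mRNAs stable, had 2.99 and 7.75 CPM in MO injected, against 9.13 and 18.6 CPM in MO control, a log2 ratio of -1.31 (interval -1.68 to -0.98). Nsun4, a methyltransferase of the mitochondrial ribosome, had 174.2 and 308.4 CPM in MO injected, against 354.2 and 485.3 CPM in MO control, a log2 ratio of -0.77. Fastkd3, an RNA-binding protein, and Elac2, which trims tRNA ends, had log2 ratios of 0.93 and 0.54 with MO. For S31A, Fastkd2, which binds the large rRNA, had 0 and 2.36 CPM in S31A injected, against 23.1 and 22.5 CPM in S31A control, a log2 ratio of -4.33 (interval -5.13 to -3.83). Ptcd2, known in mouse for processing the RNA of mt-Cytb, had 0.171 and 4.82 CPM in S31A injected, against 29.9 and 44.5 CPM in S31A control, a log2 ratio of -4.01 (interval -4.52 to -3.64). Pnpt1, which degrades mitochondrial RNA, had 10.5 and 18.0 CPM in S31A injected, against 1.68 and 4.48 CPM in S31A control, a log2 ratio of 2.12 (interval 1.77 to 2.55). Pde12, which removes poly(A) tails in mitochondria, had 82.1 and 60.2 CPM in S31A injected, against 36.2 and 29.98 CPM in S31A control, a log2 ratio of 1.14 (interval 1.01 to 1.27).

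Of 18 mitochondrial translation factors listed 17 were in the table and 8 were measured in each injection comparison. With MO 1 passed 2-fold upward and 1 downward, and with S31A 1 upward and 3 downward, beside 11.3% and 12.5% of all measured features with MO and 14.1% and 16.2% with S31A. Tsfm, an elongation factor, was the one higher in both. It had 117.9 and 64.7 CPM in MO injected, against 63.2 and 27.6 CPM in MO control, a log2 ratio of 1.02. It had 77.3 and 52.0 CPM in S31A injected, against 15.7 and 44.5 CPM in S31A control, a log2 ratio of 1.12. Its gap between libraries was about as large as the difference between samples in each experiment. Mtif3, an initiation factor, had 0.306 and 13.4 CPM in MO injected, against 18.1 and 28.8 CPM in MO control, a log2 ratio of -1.90. Letm1, a protein of the inner membrane, had a log2 ratio of -0.94 with MO. With S31A, Oxa1l, which inserts proteins into the inner membrane, had a log2 ratio of -1.26, Mrrf, which recycles ribosomes, of -0.64 and Mtfmt, which formylates the initiator tRNA, of -0.53, all without overlap.

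Of 83 genes of mitochondrial ribosomal proteins 36 were measured in each injection comparison. With S31A 11 of 36 passed 2-fold downward and 1 upward, with a median log2 ratio of -0.25, beside 16.2% and 14.1% and a median of 0.02 over all measured features. With MO 4 were lower and 3 higher, with a median of 0.10, beside 12.5% and 11.3% of all measured features. Mrpl17, of the large subunit, had 0.0853 and 2.57 CPM in S31A injected, against 36.4 and 15.2 CPM in S31A control, a log2 ratio of -4.32 (interval -5.06 to -3.84). Mrpl2 and Aurkaip1 had log2 ratios of -4.49 and -3.90. Mrps12, of the small subunit, had 0 counts in S31A injected and 229 in S31A control, at least 72.6-fold lower taking 3 counts as the floor of the summed sample, though its S31A control libraries were at 1.495 and 18.7 CPM. With MO the same gene was higher, at 11.7 and 13.8 CPM in MO injected, against 3.15 and 5.26 CPM in MO control, a log2 ratio of 1.68 (interval 1.30 to 2.13). Mrps35 had 0 and 2.62 CPM in MO injected, against 14.8 and 22.2 CPM in MO control, a log2 ratio of -3.86 (interval -4.65 to -3.38), and Mrps31 and Mrps27 had log2 ratios of -1.97 and -1.96. Some of the named nuclear genes were near 0 in library 1 of the injected sample alone, such as Mtif3 with MO and Ptcd2 with S31A. Others were low in both S31A injected libraries, with Mrps12 at 0 and 0, Mrpl2 at 0.938 and 0 and Aurkaip1 at 1.02 and 1.61 CPM. None of the measured mitochondrial genes was near 0 in an injected library. Most of them stood at far higher levels, and the nuclear genes were named for their large ratios, so the 2 sets are not alike.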

How the data were processed

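The authors deposited raw counts per gene as whole numbers, with gene coordinates and lengths, for 55291 features in 8 columns from 4 samples. The submitters' processing notes name mm10, Bowtie2, featureCounts, FastQC and DESeq2. Versions, strand setting and the handling of reads with several matches are not given in the sources used here. Per the labels' protocols, an NEBNext Ultra II DNA library kit was used on PCR-amplified cDNA of total RNA. No molecular identifiers are named, so counts are not independent molecules. Libraries of the same sample differed beyond sampling noise (chi-square of 47.1 to 122.6 per degree of freedom), and were still not treated as replicates.

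The libraries of a sample were summed, and sums were scaled by TMM (edgeR 4.0.16, R 4.3.3). Library values were scaled over all 8 libraries, with factors of 0.943 to 1.07. With library totals alone in place of TMM, the median log2 ratio of all measured features moved by -0.11 with MO, -0.10 with S31A and -0.08 between controls. The ratio step was also run on simulated counts with no libraries within samples, which does not cover the spread between the libraries of these data. Nuclear copies were nuclear GENCODE M21 transcripts that matched a mitochondrial gene with BLAST+ 2.17.0 at 85% identity or more over at least 100 bases and 50% of the copy, which gave 19 features. The copied stretch was taken from those at 99% or more on chromosome 1.

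The mitochondrial genes, gene lists and markers were chosen with earlier results of these data known. Values in every library were given for measured members, and up to 4 genes per nuclear list and injection were named by the largest absolute log2 ratio among those without overlap. The members under 10 CPM, the copies and the strand groups were named after their values were seen. Alternatives were other scalings, prior counts and CPM minimums, means of libraries, the share without rRNA genes or with nuclear copies, and leaving out each library.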

Additional observations from a re-analysis of the deposited data

Results flagged for a closer look

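For 5 values both libraries of the injected sample lay on one side of their control with MO and on the other side with S31A. The difference between the 2 experiments was not tested, and 4 of the 5 rest on few counts. The log2 ratio of mt-Co2 was 1.13 with MO and -0.62 with S31A, that of mt-Atp8 was 1.56 and -0.68, that of mt-Co3 was 0.97 and -0.16, and that of mt-Tm, the methionine tRNA, was 0.99 and -0.82. mt-Tm rested on 100 counts in MO injected and 35 in MO control, and on 98 in S31A injected and 184 in S31A control. The share of mitochondrial counts on minus-strand genes had log2 ratios of 0.12 with MO and -0.51 with S31A.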

How the results depend on the processing

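The lower share in both injected samples and the higher share in S31A control kept their direction under every alternative run. The log2 ratio of the share was -0.35 with MO, -0.26 with S31A and 0.89 between controls as a mean of library shares, and -0.47, -0.27 and 0.93 without the rRNA genes. Leaving out 1 library in turn gave -0.65 to -0.12 with MO, -0.49 to -0.062 with S31A and 0.83 to 0.94 between controls.

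The median over measured genes with MO turned to 0.11 with no filter and to 0.091 without library 1 of MO injected. It was -0.19 with scaling by totals, -0.14 at 50 CPM and -0.11 with means of libraries, and it ran from -0.37 to 0.091 with a library left out. With S31A it was -0.28 with scaling by totals, -0.32 at 1 CPM and -0.25 with no filter, and it ran from -0.44 to -0.025. Between controls it was 0.87 with scaling by totals and 1.05 at 1 CPM, and it ran from 0.80 to 1.15.

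The number of genes 2-fold apart with MO was 0 with scaling by totals, DESeq2 size factors, 50 CPM or means of libraries, 4 at 1 CPM and 7 with no filter, and 0 to 5 with a library left out. With S31A it was 2 with scaling by totals, 6 at 1 CPM, 0 at 50 CPM and 9 with no filter, and 0 to 2. Between controls it was 14 at 1 CPM and 16 with no filter, and 5 to 9. A lower minimum takes in tRNA genes with few counts. The rRNA share of single libraries was 13.0% to 14.7% in MO injected, 6.39% to 16.4% in MO control, 5.31% to 7.38% in S31A injected and 7.27% to 7.48% in S31A control. With a library left out, the log2 ratio of the minus-strand share of mitochondrial counts ran from 0.08 to 0.16 with MO. It ran from -0.61 to -0.44 with S31A and from -0.16 to -0.08 between controls. The causes of these shifts were not tested. No paired analysis was possible because each group is 1 sample. With that number, a difference in share below the gap between libraries is not resolved.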
